A study of Mus musculus with 5 samples.

Results

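The insulin-like growth factor (IGF) system was followed through 5 single-cell RNA sequencing (scRNAseq) libraries of differentiating mouse epiblast stem cells (EpiSCs). Its members were 10 of the 32285 genes in the files, taken by symbol: the binding protein genes Igfbp2, Igfbp3, Igfbp4 and Igfbp5, the receptor genes Igf1r and Igf2r, the ligand gene Igf2, the noncoding RNA gene H19, and the RNA-binding protein genes Igf2bp1 and Igf2bp3. These genes were picked from earlier results on these libraries, for the opposite course of the binding protein genes over the conditions, so that their levels are given as a description. The wild-type EpiSC line had a 129 background and came from embryonic epiblast. Every culture received 1 µM Chi, a Wnt agonist that inhibits GSK3, and 8 ng/ml BMP4 for 3 days. Of the 5 cultures, 4 differed in FGF2, at 0, 0.75, 3 and 12 ng/ml. The fifth was treated with 30 nM AZD4547, an inhibitor of FGF receptors (FGFRi), with no FGF2 dose stated for it. Each condition had 1 library, so that no test between conditions was possible: how far parallel cultures of one condition would differ is unknown, and condition and culture cannot be told apart. Whether the difference of the FGFRi library from that without FGF2 comes from the inhibitor alone was not tested.

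IGF ligands signal through the type 1 receptor, a receptor tyrosine kinase that feeds into the PI3K/AKT and MAPK pathways, and promote growth and survival of embryonic tissues. The Igf2 receptor takes up IGF2 and carries it to lysosomes, and the secreted binding proteins hold IGFs in the extracellular space, where they can limit or prolong their action. Igf2, H19 and Igf2r are imprinted genes. The Igf2bp proteins bind mRNAs, Igf2 mRNA among them, and are typical of embryonic cells.

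A level is given here in CPM, the number of unique molecular identifiers (UMIs, which count captured mRNA molecules) of a gene in all cells kept from a library, per 1000000 of their UMIs. Brackets after a level or ratio hold the 95% interval for counting error only. After filtering, 10653 of 15375 barcodes were retained, with between 1696 and 2725 cells and a median depth of between 24408 and 29661.5 UMIs per cell in a library. The deposited barcodes held between 50167816 and 84046746 UMIs per library. Between 0 and 2 barcodes of retained cells were shared by any pair of libraries. Markers of the starting cell type were low in every library: the summed level of 4 epiblast markers (Pou5f1, Nanog, Utf1 and Fgf5) lay between 5.46 CPM with the FGFRi and 21.0 CPM at 12 ng/ml FGF2. From the FGFRi to 12 ng/ml FGF2, the summed level of 4 mesenchyme and extraembryonic mesoderm markers went from 3064 to 90.9 CPM, with each of the 4 over 10 CPM with the FGFRi and 3 of them at 12 ng/ml. Most of this sum with the FGFRi came from Tagln (1915 CPM) and Acta2 (1008 CPM). Prrx1 went from 77.8 to 0.537 CPM and Hand1 from 63.5 to 32.7 CPM, with Hand1 highest at 0 ng/ml (85.7 CPM). Over the same libraries, 4 primitive streak and nascent mesoderm markers went from 1.13 to 255 CPM, with 0 and 3 of them over 10 CPM. Most of this sum at 12 ng/ml came from T (208 CPM), and Eomes had 1.98 CPM there. The summed level of 4 surface and extraembryonic ectoderm markers went from 2400 to 643 CPM, with 4 and 2 of them over 10 CPM. Most of the ectoderm sum came from Krt8 (942 and 328 CPM) and Krt18 (1350 and 305 CPM). The part of these shifts in the levels of IGF system genes was not tested, and the UMIs per cell given below cannot fully tell fewer cells with a gene from less RNA per cell.

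The members lie on 5 chromosomes (GRCm38, positions from GENCODE vM21). Igfbp2 (ENSMUSG00000039323, chr1:72824503-72852474, forward strand) and Igfbp5 (ENSMUSG00000026185, chr1:72857932-72874884, reverse strand) face each other tail to tail, with 5457 bases and no annotated gene between them. Igfbp3 (ENSMUSG00000020427, chr11:7206086-7213923) has Igfbp1 as its neighbor, 3539 bases away, and Igfbp4 (ENSMUSG00000017493, chr11:99041244-99054392) and Igf2bp1 (ENSMUSG00000013415, chr11:95957163-96005940) are on the same chromosome. H19 (ENSMUSG00000000031, chr7:142575529-142578143) and Igf2 (ENSMUSG00000048583, chr7:142650766-142666816) are 72622 bases apart on the reverse strand, and Igf1r (ENSMUSG00000005533, chr7:67952827-68233668) is elsewhere on chromosome 7. Igf2bp3 (ENSMUSG00000029814) is at chr6:49085223-49214957 and Igf2r (ENSMUSG00000023830) at chr17:12682406-12769664. Igf2 overlaps the antisense gene Igf2os and Igf2r the antisense gene Airn, and Igf2bp1 and Igf2bp3 each overlap 1 further listed gene on the opposite strand. How the counting used strand is not given in the sources used here, and whether reads of these pairs were mixed was not tested.

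The promoters of the 3 binding protein genes whose levels differed most between libraries are printed from RefSeq (GRCm38.p6), which held promoters for 8 of the 10 members. Each runs from 250 bases before to 50 bases after the start of the gene, 5′ to 3′ along the gene. Capitals mark matches on either strand to 4 short motifs, the GC box GGGCGG, the TATA box TATAAA, the ETS core CCGGAA and the TCF core CTTTGA. For Igfbp2 the table held a pair of windows, of which the one that starts first along the gene is printed, chr1:72824230-72824529 (forward). The window of Igfbp5 is chr1:72874816-72875115 (reverse) and that of Igfbp3 is chr11:7213874-7214173 (reverse).
Igfbp2: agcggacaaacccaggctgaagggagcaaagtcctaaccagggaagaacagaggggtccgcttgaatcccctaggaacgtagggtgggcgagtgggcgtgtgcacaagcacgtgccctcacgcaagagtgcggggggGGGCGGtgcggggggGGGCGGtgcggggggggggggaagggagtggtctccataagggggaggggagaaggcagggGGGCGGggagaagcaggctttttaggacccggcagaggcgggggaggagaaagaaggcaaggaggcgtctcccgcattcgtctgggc
Igfbp5: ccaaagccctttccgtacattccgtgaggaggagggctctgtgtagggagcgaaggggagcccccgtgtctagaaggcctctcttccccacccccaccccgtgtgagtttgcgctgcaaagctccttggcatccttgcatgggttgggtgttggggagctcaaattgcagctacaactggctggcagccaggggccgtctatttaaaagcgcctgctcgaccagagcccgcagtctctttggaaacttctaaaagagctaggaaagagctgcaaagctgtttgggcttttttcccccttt
Igfbp3: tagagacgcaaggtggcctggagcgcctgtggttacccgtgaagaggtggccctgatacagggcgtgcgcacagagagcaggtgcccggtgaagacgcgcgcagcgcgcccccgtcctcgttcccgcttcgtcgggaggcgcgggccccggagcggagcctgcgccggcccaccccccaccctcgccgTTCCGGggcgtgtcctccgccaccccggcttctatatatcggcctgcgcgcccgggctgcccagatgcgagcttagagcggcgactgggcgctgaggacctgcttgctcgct
The printed Igfbp2 window held 3 GC boxes, the Igfbp3 window 1 ETS core, and the Igfbp5 window none of the 4 motifs. None of them was found in the other Igfbp2 window, chr1:72825137-72825436 (forward), which had a GC content of 57.3%. Of all 32851 promoter windows of this length, 35.7% held a GC box, 13.6% a TATA box, 14.9% an ETS core and 16% a TCF core. Among the printed windows, GC content was 67.0% for Igfbp2, 56.3% for Igfbp5 and 71.7% for Igfbp3.

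Among the binding protein genes, Igfbp2 had the widest range. Its protein binds IGFs in the extracellular fluid of many fetal tissues. Igfbp2 was found at 1441 CPM with the FGFRi (1430 to 1452), and over the dose series from 0 to 12 ng/ml FGF2 134.9 (132 to 138), 59.96 (58.3 to 61.7), 23.9 (22.8 to 25.2) and 16.1 CPM (15.1 to 17.0). The level was thus highest with the FGFRi and lower at each further dose, and no intervals of neighboring libraries overlapped. It was 10.7-fold lower at 0 ng/ml than with the FGFRi (10.4 to 10.9), a further 8.40-fold lower at 12 than at 0 ng/ml (7.89 to 8.95), and 89.7-fold lower at 12 ng/ml than with the FGFRi (84.6 to 95.2). Of the 8445 genes that reached 10 CPM in one of these libraries, 9 had a lower ratio of 0 ng/ml over the FGFRi. Since Igfbp2 was picked from these libraries, nothing is read from this rank.

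Igfbp5, the neighbor of Igfbp2 and the gene of a binding protein that attaches to extracellular matrix, followed the same order. Its level was 237 CPM under the FGFRi (232 to 241), then 135 (132 to 138), 40.7 (39.3 to 42.1), 10.9 (10.1 to 11.7) and 7.90 CPM (7.26 to 8.58) through the 4 FGF2 doses in rising order. The largest steps of this pair of neighbors lay at different places. From the FGFRi to 0 ng/ml, Igfbp5 was lower by 1.75-fold (1.70 to 1.80), whereas from 0 to 12 ng/ml it was lower by 17.1-fold (15.7 to 18.7), and 1 of the 8237 genes with at least 10 CPM had a lower ratio. Nothing is read from this rank either, since Igfbp5 was picked from the same libraries.

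Igfbp3, the gene of the main carrier of IGFs in serum, was highest at the other end of the series. It stood at 27.3 CPM with the FGFRi (25.8 to 28.8), and over the dose series from 0 to 12 ng/ml FGF2 22.5 (21.2 to 23.7), 53.5 (52.0 to 55.1), 88.0 (85.8 to 90.3) and 100.4 CPM (98.1 to 103). It was the only member whose level was higher at each further FGF2 dose, and the FGFRi library was close to the 0 ng/ml library. At 12 ng/ml it was 4.47-fold higher than at 0 ng/ml (4.21 to 4.75), of which the step to 0.75 ng/ml gave 2.38-fold (2.24 to 2.54). Between the FGFRi and 0 ng/ml, the ratio was 0.822 (0.761 to 0.889). It was 0.665 with equal weight for each cell.

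Igfbp4, whose product is cleaved by the protease encoded by Pappa, was highest with the FGFRi and had a shallow minimum in the middle of the dose series. Its level was 132 CPM under the FGFRi (129 to 136), then 71.2 (69.0 to 73.4), 52.7 (51.2 to 54.3), 54.6 (52.8 to 56.4) and 75.3 CPM (73.3 to 77.4) through the 4 FGF2 doses in rising order. The levels for the middle doses, 0.75 and 3, had overlapping intervals, and the ratio of 12 over 0 ng/ml was 1.06 (1.02 to 1.10). Of the 4 binding protein genes, then, 3 were highest with the FGFRi and 1 at 12 ng/ml, and each had its own order over the FGF2 doses apart from Igfbp2 and Igfbp5.

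**Figure D1:**
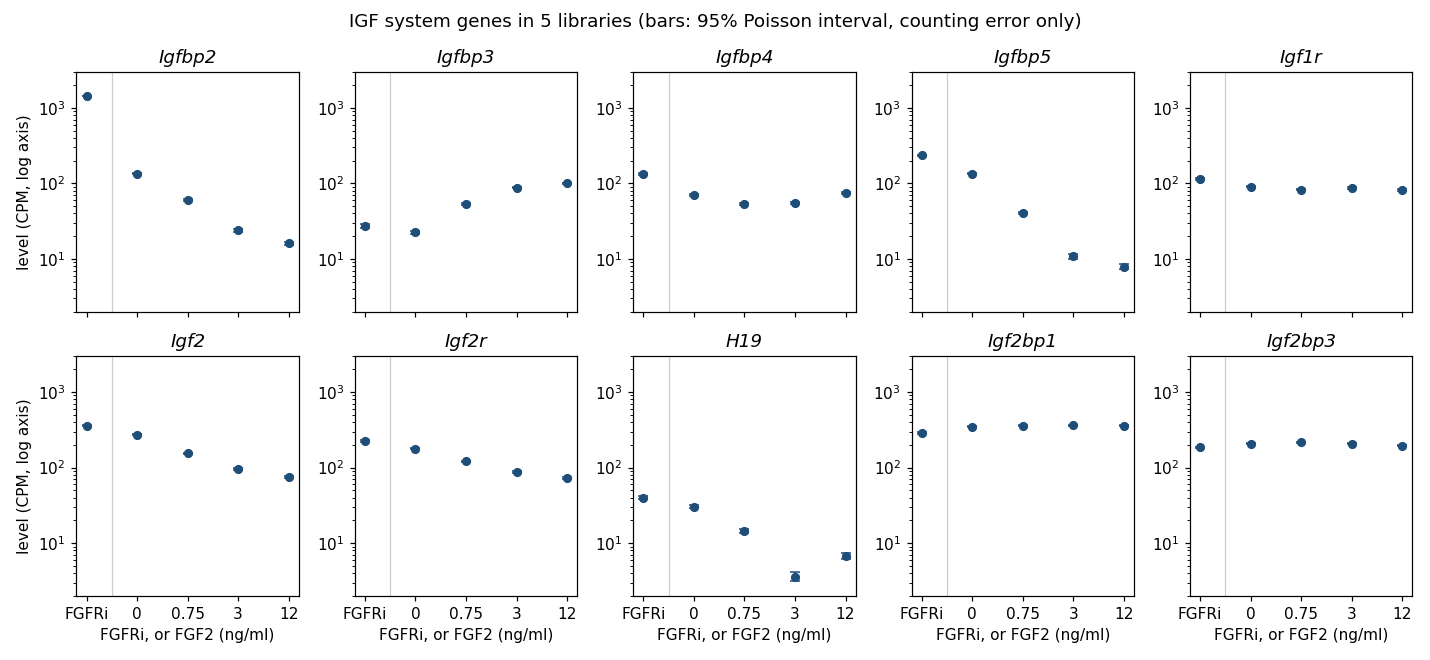
Levels of the 10 IGF system genes in CPM (log axis) in the FGFRi library and at 0, 0.75, 3 and 12 ng/ml FGF2, 1 library each, with points at the level and bars for the 95% Poisson interval. Between the FGFRi and 12 ng/ml, Igfbp2 goes from 1441 to 16.1 CPM, Igfbp3 from 27.3 to 100.4 CPM, and Igf2bp1 and Igf2bp3 stay within a 1.26-fold and a 1.16-fold range.

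The ligand gene Igf2 had 358 CPM with the FGFRi (353 to 364), and over the dose series from 0 to 12 ng/ml FGF2 272 (268 to 276), 155 (152 to 157), 95.3 (92.9 to 97.7) and 75.3 CPM (73.3 to 77.4). No neighboring intervals overlapped, and the level at 12 ng/ml was 3.61-fold lower than at 0 ng/ml (3.50 to 3.73). The other ligand genes were at or near 0. Ins1 had no UMI in any library, which allows a level of up to between 0.0368 and 0.0627 CPM, and Igf1 and Ins2 reached at most 0.502 and 0.792 CPM. Among the ligand genes of the system, Igf2 was thus the one detected above this level.

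Igf2r, which encodes the receptor that clears IGF2, followed the order of Igf2 with a smaller range. Its level was 225 CPM under the FGFRi (221 to 229), then 178 (175 to 182), 120 (118 to 123), 87.3 (85.1 to 89.6) and 72.8 CPM (70.8 to 74.8) through the 4 FGF2 doses in rising order. Between 0 and 12 ng/ml it was 2.45-fold lower (2.37 to 2.54), which made it the member closest to the 2-fold limit used below from the inside.

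The signaling receptor gene Igf1r varied little, with 114 CPM with the FGFRi (111 to 117), and over the dose series from 0 to 12 ng/ml FGF2 91.0 (88.5 to 93.5), 82.7 (80.8 to 84.7), 86.6 (84.3 to 88.9) and 81.9 CPM (79.8 to 84.1). The ratio of 12 over 0 ng/ml was 0.901 (0.867 to 0.935). Insr, which encodes the insulin receptor, was between 13.3 and 16.8 CPM in all 5 libraries.

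H19, which lies beside Igf2 and is expressed from the opposite parental copy, had the steepest step of the members between neighboring FGF2 doses, being 4.06-fold lower at 3 than at 0.75 ng/ml (3.53 to 4.69). Its level was 40.1 CPM under the FGFRi (38.3 to 41.9), then 30.3 (28.9 to 31.8), 14.6 (13.8 to 15.4), 3.59 (3.14 to 4.08) and 6.74 CPM (6.15 to 7.37) through the 4 FGF2 doses in rising order. Unlike Igf2, it was higher at 12 than at 3 ng/ml, by 1.88-fold (1.60 to 2.21). Between 0 and 12 ng/ml it was 4.50-fold lower (4.06 to 4.99). A minority of cells held an H19 UMI, and these intervals leave out its spread over cells, which is given below.

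The RNA-binding protein genes stayed nearly level. Igf2bp1 was found at 287 CPM with the FGFRi (282 to 291), and over the dose series from 0 to 12 ng/ml FGF2 346 (341 to 351), 357 (353 to 361), 361 (356 to 366) and 359.5 CPM (355 to 364). Igf2bp3 had 185 CPM under the FGFRi (181 to 189), then 207 (203 to 211), 215 (212 to 218), 207 (204 to 211) and 194 CPM (191 to 197) through the 4 FGF2 doses in rising order. Both were lowest with the FGFRi.

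Genes were also counted by a rule of size, which asked for 50 CPM or more on either side of a comparison and for a ratio of at least 2. From the FGFRi to 0 ng/ml FGF2, 6.46% of all genes tested passed it (1.86% higher and 4.6% lower at 0 ng/ml), and of the 8 members tested only Igfbp2 did, being lower at 0 ng/ml. Igfbp4 was just outside, 1.86-fold lower (1.79 to 1.93), and passed with equal weight for each cell, at a ratio of 0.487. From 0 to 0.75 ng/ml, 1.51% of genes passed (0.164% upward and 1.35% downward), and 3 of 9 members, Igfbp3 upward and Igfbp2 and Igfbp5 downward. Igfbp2 alone of 8 members passed from 0.75 to 3 ng/ml, where 0.432% of genes did (0.133% upward and 0.299% downward). Neither any of 7 members nor any other gene (0%) passed from 3 to 12 ng/ml. When 12 was set against 0 ng/ml, 4.14% of genes passed (1.21% higher and 2.93% lower), and 5 of 9 members: Igfbp3 was higher, and Igfbp2, Igfbp5, Igf2 and Igf2r were lower. Since the members were picked from these comparisons, nothing is read from these shares. The minimum of 50 CPM decided part of these counts. With a minimum of 10 CPM, at which 5.91% of genes passed (1.87% higher and 4.04% lower), H19 joined the 5 as lower at 12 than at 0 ng/ml. From 0 to 0.75 ng/ml, 4 of 10 members then passed, H19 in addition (1.72% of genes), and from 0.75 to 3 ng/ml 3 of 10, H19, Igfbp2 and Igfbp5 (0.859%). On this last step Igfbp2 was lower by 2.50-fold, H19 by 4.06-fold and Igfbp5 by 3.74-fold.

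**Figure D2:**
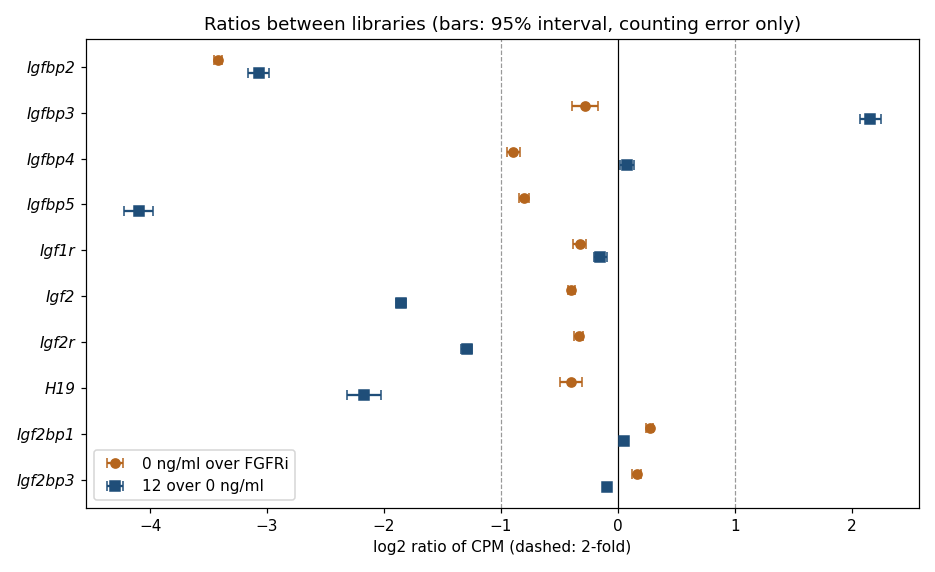
Ratios of levels on the log2 scale for 0 ng/ml FGF2 over the FGFRi (circles) and for 12 over 0 ng/ml (squares), with bars for the 95% interval of counting error and dashed lines at 2-fold. Igfbp2 lies at -3.42 and -3.07 and Igfbp3 at -0.28 and 2.16, and Igf1r, Igf2bp1 and Igf2bp3 lie between the dashed lines for both pairs.

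To see whether a level came from many cells or few, UMIs per cell were counted after each cell had been thinned at random to 10000 UMIs. The share of cells with at least 1 Igfbp2 UMI was 88.3% with the FGFRi (interval 86.6% to 89.8%), and by rising FGF2 dose 32.3% (30.0% to 34.6%), 19.2%, 11.0% and 8.39% (7.31% to 9.57%). Without thinning these shares were 93.5%, 48.1%, 31.1%, 22.3% and 17.3%. Cells with 10 or more Igfbp2 UMIs made up 47.7% of the FGFRi library and 2.74%, 0.924%, 0.473% and 0.125% along the FGF2 doses. Over cells with an Igfbp2 UMI before thinning, the level was 1513 CPM with the FGFRi, against 244 CPM without FGF2 and 82.0 CPM at its highest dose. These cells were chosen by the same UMIs that the level counts, so that it is no separate measure of the RNA per cell. A lower level tends to give a lower share of cells with a UMI, so that a cell with no UMI cannot be read as one without the RNA.

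An Igfbp3 UMI was found in a minority of cells of every library. Its thinned share was 15.2% with the FGFRi (13.5% to 17.0%), 9.47% at 0 ng/ml FGF2 (8.11% to 11.0%), 15.8% at 0.75 ng/ml (14.5% to 17.2%), 24.3% at 3 ng/ml (22.5% to 26.2%) and 23.8% at 12 ng/ml (22.1% to 25.5%), and the unthinned shares were 28.0%, 21.8%, 27.6%, 36.1% and 37.2%. The 99th percentile was 4 UMIs per cell with the FGFRi and 3, 9, 12 and 14 UMIs along the FGF2 doses, and the cell with the most, 39 UMIs, was found at 0.75 ng/ml. At 12 ng/ml, the tenth of cells with the most Igfbp3 held 80.3% of its thinned UMIs. From 3 to 12 ng/ml, the intervals of the share overlapped, while the summed level was 1.14-fold higher (1.10 to 1.18).

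Igfbp5 was detected in 55.5% of thinned cells with the FGFRi and in 40.7%, 18.9%, 5.48% and 3.59% along the FGF2 doses (unthinned 70.3%, 55.7%, 30.5%, 11.6% and 6.48%). For Igf2 these thinned shares were 84.3%, 73.2%, 57.3%, 46.6% and 40.1% (unthinned 95.4%, 91.2%, 80.7%, 72.6% and 64.7%). Igf2r was detected in 79.5%, 73.1%, 60.9%, 52.2% and 47.3% of thinned cells. Igf1r was detected in between 52.5% and 62.6%, Igf2bp1 in between 91.1% and 96.2% and Igf2bp3 in between 78.9% and 85.9% of thinned cells.

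H19 was seen in 13.5% of thinned cells with the FGFRi, in 7.92% at 0 ng/ml FGF2 and in between 2.65% and 3.92% at the higher doses. At 0 ng/ml, 13 of 1679 cells had 10 or more H19 UMIs, the highest had 54, and the variance of the counts was 17.8 times their mean. The ratio of variance to mean was 10.6 with the FGFRi, 9.55 and 7.51 in the libraries with the lowest and the highest amount of added FGF2, and 1.82 at 3 ng/ml, where the highest cell had 6 UMIs and 0 of 2115 cells had 10 or more, which allows a share of up to 0.142%. In the library without FGF2 the same ratio was 1.37 for Igf2bp1 and 1.18 for Igf2bp3.

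**Figure D3:**
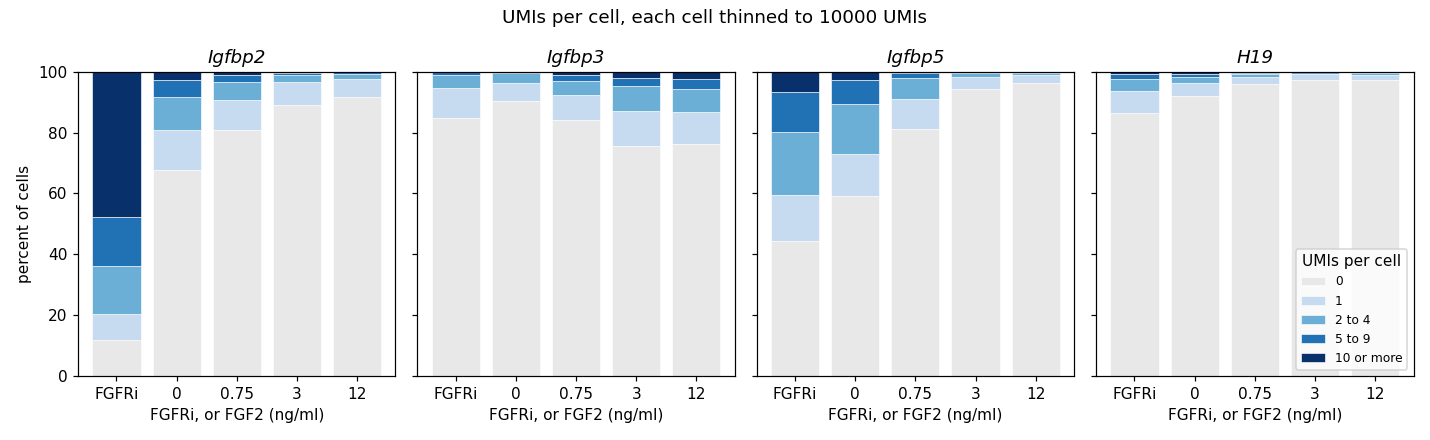
Percent of cells with 0, 1, 2 to 4, 5 to 9 and 10 or more UMIs of Igfbp2, Igfbp3, Igfbp5 and H19 in each library, with every cell thinned to 10000 UMIs. Cells with 10 or more Igfbp2 UMIs make up 47.7% of the FGFRi library and 0.125% of the 12 ng/ml library, and most cells of every library have no Igfbp3 UMI.

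The study follows the loss of the epithelial cadherin Cdh1 and the gain of Cdh2 during mesoderm differentiation, so cells were next grouped by UMIs of these genes. These classes rest on single genes and are no cell types. Cells with Cdh1 and without Cdh2 made up 36.3% of the FGFRi library, and 43.3%, 38.7%, 20.8% and 14.1% of the FGF2 libraries by rising dose. Cells with Cdh2 and without Cdh1 made up 36.7%, 28.7%, 38.8%, 53.9% and 58.7%. The median depth of the cells with both was higher, at 31273 UMIs against 27602 and 26675 UMIs in the single classes at 12 ng/ml.

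Igfbp2 was higher in the Cdh1 than in the Cdh2 class in all 5 libraries. With the FGFRi, its level was 2253 CPM in the Cdh1 class, 1337 CPM in cells with both and 691 CPM in the Cdh2 class. At 0 ng/ml FGF2 it was 198, 154 and 28.7 CPM, and at 12 ng/ml 56.0, 14.9 and 5.63 CPM in the same order. When classes and levels were taken after thinning, an alternative chosen after seeing the data, the Cdh1 class was 3.11-fold above the Cdh2 class with the FGFRi (3.00 to 3.22), and 3.54-fold (3.06 to 4.11), 9.36-fold (7.66 to 11.5), 3.72-fold (2.95 to 4.71) and 7.49-fold (5.64 to 10.0) along the FGF2 doses. The size of the difference thus followed no steady course over the doses, and it depended on depth, as it was 6.88-fold at 0 ng/ml without thinning. The Cdh1 class was rarer at each further dose, and Igfbp2 was also lower within it at 12 than at 0 ng/ml, by 3.53-fold (3.98-fold after thinning), and within the Cdh2 class, by 5.10-fold (8.42-fold after thinning). Between the FGFRi and 0 ng/ml, where the share of the Cdh1 class was higher at 0 ng/ml, the level within it was 11.4-fold lower at 0 ng/ml.

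A low share of cells with a UMI can come from free RNA, so the share in the lowest class is set beside it. At 12 ng/ml FGF2, 4.83% of thinned Cdh2-class cells (median depth 26675 UMIs) had an Igfbp2 UMI, against 18.6% of the Cdh1 class (27602 UMIs). With the FGFRi the Cdh2 class was not low, as 79.3% of its cells had one, at a median depth of 23608 UMIs.

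Igfbp3 was distributed differently. In the 4 FGF2 libraries it was highest in cells with both cadherins, at 33.8, 112, 224 and 260 CPM along the doses, against 24.2, 51.1, 80.3 and 105 CPM in the Cdh1 class and 9.95, 26.4, 29.5 and 31.0 CPM in the Cdh2 class. At 12 ng/ml, 50.5% of thinned cells with both had an Igfbp3 UMI (46.1% to 54.8%), 32.4% of the Cdh1 class and 12.0% of the Cdh2 class. With the FGFRi the order was turned, with 38.8 CPM in the Cdh2 class, 31.1 CPM in cells with both and 15.6 CPM in the Cdh1 class. Deeper cells had more Igfbp3 at 12 ng/ml, 124 CPM at or above the median depth against 60.5 CPM below it. After thinning, cells with both were above the Cdh1 class by 3.55-fold (3.02 to 4.17), 1.81-fold (1.58 to 2.08) and 2.20-fold (1.95 to 2.48) for the doses of 0.75, 3 and 12 ng/ml. At 0 ng/ml the thinned levels of these 2 classes, 29.3 and 27.5 CPM, differed by less than counting error (a ratio of 1.06, 0.693 to 1.58).

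Igfbp4 was higher in the Cdh2 than in the Cdh1 class in every library, by 7.41-fold with the FGFRi (244 against 33.0 CPM) and by between 1.45-fold and 2.22-fold at the FGF2 doses. After thinning these differences were 5.89-fold and between 1.31-fold and 2.46-fold. Igfbp5 and Igf2r changed sides: with the FGFRi both were higher in the Cdh2 class, at 285 against 198 CPM and 273 against 179 CPM, and at all 4 FGF2 doses both were higher in the Cdh1 class, at 0 ng/ml by 160 against 55.0 CPM and 196 against 108 CPM. Within the Cdh2 class alone, Igfbp5 was 5.18-fold and Igf2r 2.53-fold lower at 0 ng/ml than with the FGFRi, whereas within the Cdh1 class the ratio of 0 ng/ml over the FGFRi was 0.810 for Igfbp5 and 1.09 for Igf2r. Igf2 was higher in the Cdh1 class with the FGFRi (527 against 231 CPM) and for 0, 0.75 and 3 ng/ml. At the highest dose its level was 80.2 CPM in the Cdh1 class and 86.4 CPM in the Cdh2 class, a ratio of 1.08 (0.997 to 1.16).

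H19 at 0 ng/ml FGF2 stood at 58.5 CPM in the Cdh1 class and at 7.23 CPM in the Cdh2 class. After thinning, these levels were 62.2 and 9.32 CPM, and 29.3 and 2.75 CPM at 0.75 ng/ml. With the FGFRi the classes were closer, at 47.2 and 31.7 CPM after thinning, and cells with neither cadherin had 55.0 CPM. Igf1r was higher in the Cdh2 class at all 4 FGF2 doses, with 97.5 against 48.3 CPM at 12 ng/ml, and lower in it with the FGFRi, with 105 against 120 CPM. Igf2bp1 and Igf2bp3 differed by at most 1.15-fold between the Cdh1 and Cdh2 classes in every library, and by at most 1.20-fold after thinning.

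**Figure D4:**
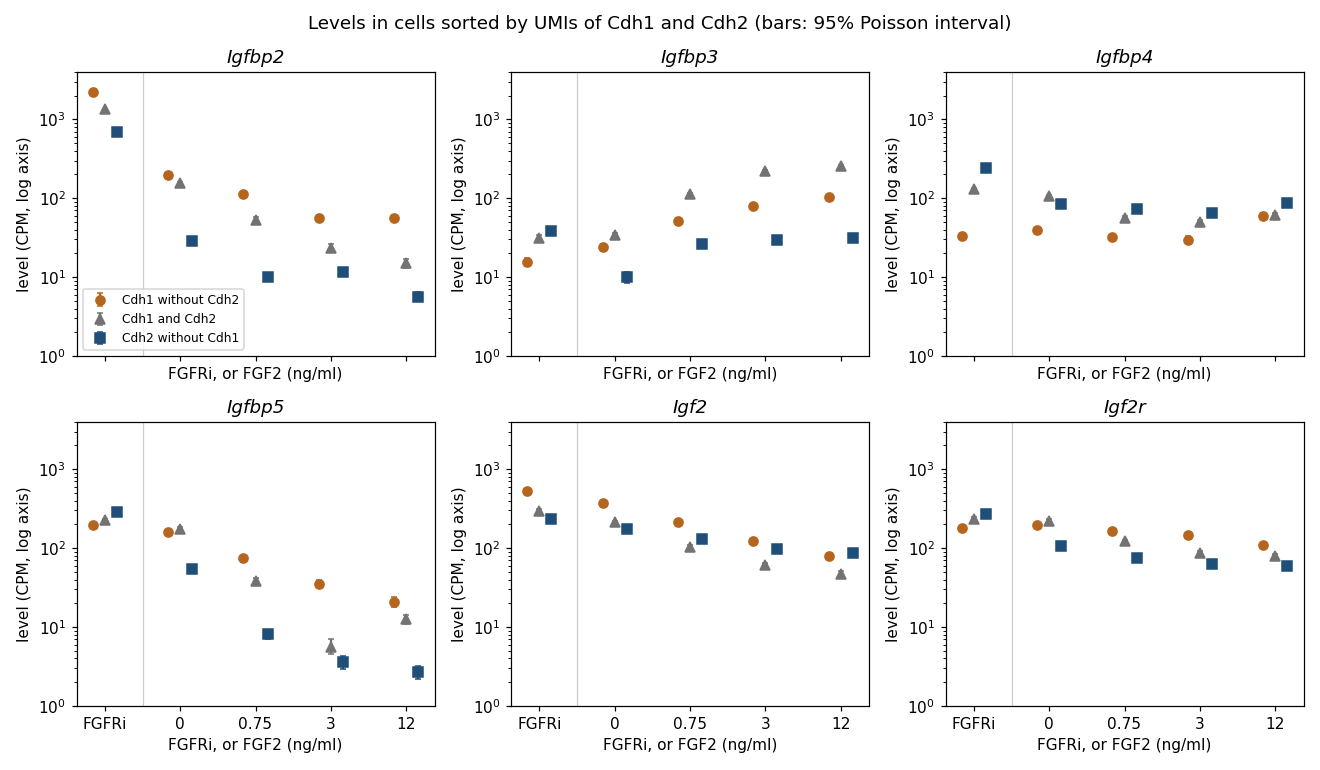
Levels in CPM (log axis) of 6 members in cells with Cdh1 but no Cdh2 UMI (circles), with both (triangles) and with Cdh2 but no Cdh1 UMI (squares), in each library, with bars for the 95% Poisson interval. Igfbp2 is highest in the Cdh1 class throughout, and Igfbp3 is highest in cells with both at 0.75, 3 and 12 ng/ml FGF2, where it reaches 260 CPM.

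T (T/Bra), a transcription factor gene of the primitive streak and early mesoderm, split Igfbp3 in the opposite way to Igfbp2 and Igfbp5. Igfbp4 was also higher in cells with a T UMI after thinning at the doses of 0 and 0.75 ng/ml FGF2. Its levels there were 87.1 against 66.2 CPM and 72.8 against 41.2 CPM. Cells with a T UMI made up 24.6%, 47.4%, 74.5% and 82.2% of the FGF2 libraries by rising dose. In them, Igfbp3 was at 34.9, 88.3, 109 and 116 CPM along the doses, and in cells without a T UMI at 18.2, 19.6, 20.7 and 26.4 CPM. From 0 to 12 ng/ml, the level was 3.31-fold higher in cells with a T UMI (3.02 to 3.63) and 1.45-fold higher in cells without one (1.27 to 1.66). After thinning these ratios were 3.86 (3.05 to 4.96) and 1.21 (0.998 to 1.48), so that counting error no longer set the second apart from 1. Median depths were 27663 and 25927 UMIs in these classes at 12 ng/ml. With the FGFRi, 22 of 1701 cells had a T UMI, with Igfbp3 at 38.2 CPM (25.8 to 54.5) against 27.1 CPM in the others. After thinning, T was detected in 9 cells, which held 11 Igfbp3 UMIs (122 CPM, 61.0 to 219, against 27.3 CPM), so that the split by T with the FGFRi rests on few cells and depends on depth.

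Igfbp2 and Igfbp5 were lower in cells with a T UMI at all 4 FGF2 doses. At 0 ng/ml Igfbp2 was at 39.7 against 167 CPM and Igfbp5 at 37.5 against 169 CPM, and at 12 ng/ml they were at 9.64 against 47.3 CPM and 3.24 against 30.6 CPM. After thinning, the values of Igfbp2 were 20.1 against 139 CPM without FGF2 and 8.31 against 28.7 CPM at the highest dose, and those of Igfbp5 17.9 against 162 CPM and 1.48 against 15.4 CPM. Cells with Tbx6, a gene of presomitic mesoderm, had less Igfbp3 than cells without it at all 4 doses, with 48.5 against 151 CPM at 12 ng/ml, the reverse of the split by T. Igfbp2 was likewise lower in cells with Tbx6, at 5.48 against 26.3 CPM. In cells with Hand1, a gene of proximal and extraembryonic mesoderm, Igfbp2 was higher than in the rest at 0 ng/ml (173 against 81.1 CPM). In such cells it was lower than in the rest at 12 ng/ml (7.68 against 19.9 CPM, and 3.85 against 17.6 CPM after thinning). The same held with the FGFRi (981 against 1522 CPM after thinning). Where Cdx2, a caudal transcription factor gene, was detected at 0 ng/ml, Igfbp2 was at 76.9 CPM, against 271 CPM in the other cells (38.6 and 211 CPM after thinning).

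**Figure D5:**
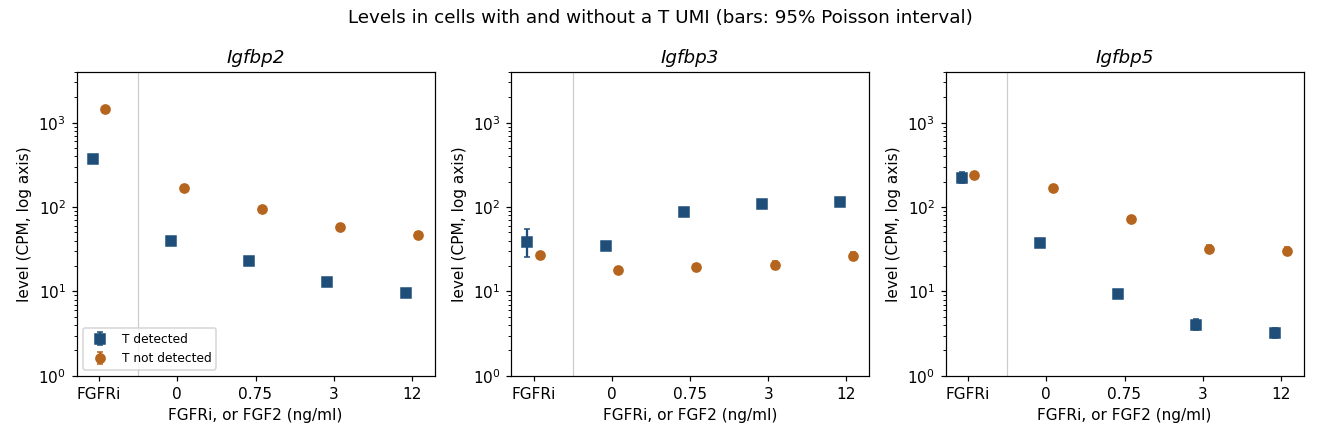
Levels in CPM (log axis) of Igfbp2, Igfbp3 and Igfbp5 in cells with (squares) and without (circles) a T UMI in each library, with bars for the 95% Poisson interval. At the FGF2 doses, Igfbp3 reaches 116 CPM in cells with a T UMI (12 ng/ml) and stays between 18.2 and 26.4 CPM in the others. Igfbp2 and Igfbp5 are lower in cells with a T UMI at these doses.

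How members varied together was described by the number of thinned cells with UMIs of both, divided by the number that the single shares would give. The interval of this quotient treats the number of cells with both as a Poisson count, so that it is too wide where a share is large. An interval that holds 1 thus does not show that genes vary independently. This quotient cannot exceed 1 divided by the larger share, so that it has little room above 1 with the FGFRi, where 88.3% of cells had an Igfbp2 and 84.3% an Igf2 UMI, and for these genes it is given at the FGF2 doses. Igfbp3 and Igf2 were found together less often than that at 0.75 ng/ml FGF2 (0.640, 0.544 to 0.748), 3 ng/ml (0.684, 0.583 to 0.797) and 12 ng/ml (0.578, 0.484 to 0.686), while the quotient was 0.928 at 0 ng/ml (0.761 to 1.12). Igfbp3 and Igfbp5 gave 0.445 at 0.75 ng/ml (0.311 to 0.615) and 0.425 at 3 ng/ml (0.220 to 0.742), with 0.978 at the highest dose (0.597 to 1.51). Igfbp2 and Igfbp5 gave 1.20 at 0 ng/ml (1.06 to 1.35) and 1.38 at 0.75 ng/ml (1.16 to 1.64). The Pearson correlation of their log-normalized values over cells was -0.16 with the FGFRi and between 0.07 and 0.18 at the FGF2 doses. For Igfbp2 and Igfbp3, whose courses were opposite over the FGF2 doses, the interval of the quotient held 1 at each of the 4 doses. The quotient went from 0.881 at 3 ng/ml (0.654 to 1.16) to 1.22 at 0.75 ng/ml (0.989 to 1.48). Their correlation over cells lay between -0.03 and 0.02 at the 4 doses. For Igf2 and H19 the interval also held 1 at each dose, with quotients of 1.13, 1.19, 1.23 and 1.14 by rising dose. The correlation of this pair over cells was 0.14 at 0 and at 0.75 ng/ml, and 0.05 and 0.06 at 3 and 12 ng/ml.

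Over the cells of a library, Pearson correlations of log-normalized values were taken as a description, since cells share a library and a range of depths. With the FGFRi (1701 cells), Igfbp2 correlated most with S100a11 (0.66), Anxa2 (0.60), both of which encode calcium-binding proteins or their partners, and Slc2a3 (0.55), a glucose transporter gene. At 12 ng/ml FGF2 (2406 cells), its highest values were those of Wnt6 (0.40), a Wnt ligand gene, Crb3 (0.33), a gene of epithelial polarity, and Slc2a3 (0.32). Igfbp3 correlated at 12 ng/ml with Gbp2 (0.55), Gbp2b (0.55), interferon-inducible GTPase genes with similar sequences, and Sprr2a3 (0.53). No gene was above 0.3 for Igfbp3 in the FGFRi library.

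Across the 5 libraries, genes with a profile near that of a member were found by the Euclidean distance of mean-centered log2(CPM + 1) among 8760 genes. Nearest to Igfbp2 were Prrx1, a mesenchymal transcription factor gene (77.8 CPM with the FGFRi and 0.537 CPM at 12 ng/ml), Acta2, the gene of smooth muscle actin (1008 and 15.7 CPM), and Lce1h (36.1 and 0.0283 CPM). Prrx1 and Acta2 are also among the mesenchyme markers above. A profile over libraries does not show which cells of a library hold the RNA. Within the FGFRi library, Igfbp2 was lower in the Cdh2 than in the Cdh1 class (686 against 2131 CPM after thinning). Igfbp5 lay nearest to Nexn, Tinagl1 and Acta1, of which Nexn and Acta1 encode proteins of the actin cytoskeleton. Igfbp3 was nearest to Arg1, Itgb8 and Sh3gl3. Arg1, the gene of arginase, had 3.26 CPM in the FGFRi library and 19.1 CPM at the highest dose, and Itgb8, an integrin gene, 9.30 and 24.8 CPM. For Igfbp4 the nearest genes were Stat3, Gstk1 and Lgals1, for Igf2 Cdh3, Cdc42ep1 and Ntf5, for Igf2r Atp11a, Klhl13 and Irs2, and for H19 Itga3, Pdgfb and Pdlim3. The distances went from 0.0920 for Igf2r and Atp11a to 1.21 for Igfbp2 and Lce1h. With 5 libraries, many genes have similar profiles.

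The rest of the pathway was followed through a list of 45 further genes, of which 32 had at least 10 CPM in any library. From the FGFRi to 0 ng/ml FGF2, 31 could be counted, with 10 CPM or more in one of the libraries, and 1 was at least 2-fold higher and 5 at least 2-fold lower, where 7.99% of all genes passed (2.62% higher and 5.38% lower). The higher one was Lin28a, an RNA-binding protein gene of pluripotent and embryonic cells, with 49.2 CPM with the FGFRi and 154 CPM at 0 ng/ml. Those lower at 0 ng/ml were Foxo1, a transcription factor gene restrained by AKT (43.7 and 18.4 CPM), Htra1 (28.2 and 3.06 CPM) and Pappa (20.8 and 8.11 CPM), which encode secreted proteases, Irs1, an adaptor of the insulin and IGF receptors (20.3 and 8.08 CPM), and Pik3r3, a regulatory subunit of PI3K (19.9 and 8.34 CPM). The median ratio of the 31 genes was -0.16 on the log2 scale, against 0.00 for all genes.

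From 0 to 12 ng/ml FGF2, none of 27 such genes was 2-fold higher and 4 were 2-fold lower, where 5.91% of all genes passed. These were Foxo1 (18.4 and 8.43 CPM), Irs2 (34.5 and 15.4 CPM), Pik3cb, a catalytic subunit of PI3K (15.6 and 7.66 CPM), and Pik3r1 (20.9 and 10.2 CPM). Between neighboring FGF2 doses none passed, of 28 genes from 0 to 0.75 ng/ml (1.72% of all genes), 28 from 0.75 to 3 ng/ml (0.859%) and 26 from 3 to 12 ng/ml (0.0883%). The minimum of 10 CPM decided part of these counts, as it left out Pappa and Htra1, among others, at every FGF2 dose. By rising dose, Pappa was at 8.11, 2.32, 0.867 and 0.989 CPM, and Htra1 at 3.06, 1.41, 3.34 and 4.93 CPM. Of the other binding protein genes, Igfbp1 had UMIs only at 0.75 ng/ml (0.0245 CPM), Igfbp6 reached at most 0.721 CPM, and Igfbp7 was at 6.82 CPM with the FGFRi and 0.495 CPM at 12 ng/ml. Igfbpl1, also on the list, was lowest with the FGFRi (3.12 CPM). It was at 6.09, 10.2, 12.1 and 9.48 CPM through the FGF2 doses in rising order. These genes fell outside the rule for named genes and were chosen after their values were seen, as were Ins1, Igf1, Ins2 and Insr.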

How the data were processed

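Single-cell transcriptomes of 5 libraries, 1 per condition, had been made with 10x 3′ chemistry. The authors deposited raw UMI counts per gene and barcode, aligned to mm10, and the matrix headers name Cell Ranger 5.0.1. As in the methods, a barcode was kept from 2500 detected genes upward and up to 10% mitochondrial UMIs, and no doublet filter was applied. Levels were summed UMI counts per 1000000 (CPM) with exact Poisson 95% intervals, ratios had exact conditional intervals without a pseudocount, and shares had exact binomial intervals after thinning each cell to 10000 UMIs, which left out between 9 and 39 cells per library. Intervals and floors of 3 counts cover counting error only. No test between conditions was run. The members, lists and rules were chosen with earlier results of these data known. Named were all members, pathway genes with at least 10 CPM and a ratio of at least 2, the 3 nearest profiles (pseudocount of 1) of members with a range of at least 2-fold, and the 3 highest correlations above 0.3 of Igfbp2 and Igfbp3 in the FGFRi and 12 ng/ml libraries. Simulated data at these depths were tested first. Of 32285 gene identifiers, 32158 were matched in GENCODE vM21. Python 3.11.15, NumPy 2.4.6, SciPy 1.17.1, pandas 2.3.3, Matplotlib 3.10.9 and edgeR 4.0.16 (TMM factors only) in R 4.3.3 were used.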

Additional observations from a re-analysis of the deposited data

How the results depend on the processing

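The ratios of all 10 members for 0 ng/ml over the FGFRi and for 12 over 0 ng/ml were recomputed in 4 ways: with at most 5% mitochondrial UMIs, without a cell filter, with every cell given the same weight, and with TMM scaling. All 80 recomputed ratios stayed on the same side of 1, and the largest shift was 1.24-fold. The ratio of 0 ng/ml over the FGFRi for Igfbp2, 0.0936, was 0.102 with at most 5% mitochondrial UMIs and 0.0912 with equal weights, and for Igfbp3, 0.822, it was 0.665 with equal weights. From the FGFRi to 0 ng/ml, 1 member passed the rule of size, and 2 passed with equal weights (Igfbp2 and Igfbp4) and 3 with a ratio of 1.5 (Igfbp2, Igfbp4 and Igfbp5). From 0 to 12 ng/ml the count was 5 or 6 under every alternative. Shares of cells depended on depth, and all 100 recomputed without thinning or at 5000 UMIs left their interval. Of 600 class levels recomputed after thinning, an alternative chosen after seeing the data, 403 left their interval. Among them were Igfbp3 in the Cdh2 class at 12 ng/ml, 31.0 and 51.8 CPM, and Igfbp2 in the Cdh2 class at 0 ng/ml, 28.7 and 49.9 CPM. No paired analysis was possible because each condition has 1 library. Depth narrows counting error only and leaves the spread between cultures unknown.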

Other observations

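Barcodes removed by the cell filters were shallow, with library medians from 1411 to 1778 UMIs. In them, Igf2r was higher than in the retained cells of the same library, with 480 against 225 CPM in the FGFRi library and 123 against 72.8 CPM at 12 ng/ml FGF2. Igf2 behaved likewise, at 482 against 358 CPM and 154 against 75.3 CPM, and so did Igf1r, at 173 against 114 CPM and 142 against 81.9 CPM. Igfbp2 was lower in the removed barcodes of every library, with 724 against 1441 CPM in the FGFRi library and 8.05 against 16.1 CPM at 12 ng/ml. Igf2bp1 and Igf2bp3 were lower in them in every library as well, with 249 against 359.5 CPM and 128 against 194 CPM at 12 ng/ml.

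In the FGFRi library Igfbp2 and Igfbp4 were correlated at -0.35 over 1701 cells, which share a library and a range of depths. At the 4 FGF2 doses the correlation of this pair lay between -0.03 and 0.05. In every library, Igfbp2 was higher in the Cdh1 class and Igfbp4 in the Cdh2 class. The part of these classes in the correlation was not tested. Igfbp2 was higher in deeper cells of every library, between 1.20-fold with the FGFRi and 1.76-fold at 0.75 ng/ml. Igfbp3 was also higher in deeper cells at the 4 FGF2 doses but not with the FGFRi, where it was at 26.9 CPM at or above the median depth and at 28.2 CPM below it.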
